A study of Mus musculus with 5 samples.

Results

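The guanylate-binding proteins and the immunity-related GTPases are interferon-inducible GTPases of the cell's own defence against intracellular microbes. They were followed here in mouse bone marrow-derived macrophages exposed to lipopolysaccharide (LPS), the bacterial cell wall component sensed by TLR4. The 9 genes were chosen by symbol. They comprise 5 guanylate-binding proteins (GBP: Gbp2, Gbp3, Gbp5, Gbp7 and Gbp9) and 4 immunity-related GTPases (IRG: Irgm1, Irgm2, Igtp and Iigp1), of 13339 genes in the table. All 9 were listed, and all 9 had a mean of at least 1 FPKM (a read density per transcript length and per sequenced library) over the 5 libraries. At 0 h 8 of the 9 reached 1 FPKM, and Iigp1 passed this filter only through the stimulated libraries.

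The cells were grown for 5 days in medium with M-CSF from marrow of 8-week-old C57BL/6 mice, and every title carries the prefix WT2. The LPS dose was 100 ng/ml, with harvests at 0, 4, 8, 12 and 24 h. Each time has a single library, hence no replicates and no test, and a difference is one library set against another. Unstimulated cells of matching age were not analysed here, so the effects of LPS and of longer culture cannot be told apart.

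GBPs are large GTPases related to dynamin. They gather on microbe-containing vacuoles and on the surface of bacteria in the cytosol, and in mouse macrophages they help to expose bacterial LPS to the inflammatory caspase encoded by Casp4 and to activate inflammasomes. IRG proteins are smaller and are numerous in the mouse. Irgm1, Irgm2 and Igtp belong to the regulatory subgroup, in which a methionine replaces the lysine of the nucleotide-binding loop (the GMS type). These proteins sit on the cell's own membranes and keep the effector subgroup with the usual lysine (the GKS type), to which Iigp1 belongs, inactive there. Transcription of both families is known to be driven by interferons. Factors activated by interferon receptors bind short sequences called GAS and ISRE, and IRF1 binds ISRE sequences too.

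The labels call the cells macrophages, while 1 protocol field calls them mDCs. All 9 macrophage markers examined were present, among them Adgre1 at 340.5 to 967 FPKM and Csf1r at 199.5 to 636 FPKM over the 5 libraries. Of the 9 dendritic cell markers 8 were listed, with sums of 47.7, 38.4, 35.9, 29.15 and 15.2 FPKM over the time course. Most of each sum came from Itgax (4.65 FPKM at 24 h against 43.96 FPKM at 0 h), which macrophages can also express, and from Ccr7 (1.2 to 14.8 FPKM). The other 6, among them Flt3 (0.18 to 0.53 FPKM) and Zbtb46 (0.11 to 0.25 FPKM), stayed at or below 1.27 FPKM. Markers of T, B and NK cells, of which T and NK cells are the usual sources of interferon gamma, summed to 0.51 to 0.93 FPKM in the stimulated libraries and to 3.44 FPKM at 0 h, over 7 listed genes of 11. Steps between low FPKM values placed the depth at 18.8 to 19.2 M reads per library. This depth is an estimate, and the 95% intervals below are derived from it and cover counting error only. Over the 9795 genes that passed the filter, the median log2 difference from 0 h was -0.70, -0.49, -0.35 and -0.11 at 4, 8, 12 and 24 h, and counts relative to this median gene stand beside the plain ones where they differ.

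The sequences just upstream of the genes are shown first because they hold the letters that interferon-activated factors are known to recognise. The RefSeq promoter windows (GRCm38.p6) matched 7 of the 9 genes, and Gbp9 and Iigp1 were not matched. The 250 bases before the annotated start were searched on both strands for the GAS core TTCNNNGAA, whose letters read the same on either strand, and for the ISRE core GAAANNGAAA. In the sequences below capitals mark the matches. Gbp5 (gene 229898), Gbp2 (gene 14469) and Irgm1 (gene 15944) are printed. Among the 9 genes, Gbp5 had the largest difference at 4 h and Gbp2 the highest level at 8 to 24 h. Irgm1 had the highest level of the 4 IRG genes among the 9 in every library.
Gbp5, chr3:142496684-142496933, plus strand: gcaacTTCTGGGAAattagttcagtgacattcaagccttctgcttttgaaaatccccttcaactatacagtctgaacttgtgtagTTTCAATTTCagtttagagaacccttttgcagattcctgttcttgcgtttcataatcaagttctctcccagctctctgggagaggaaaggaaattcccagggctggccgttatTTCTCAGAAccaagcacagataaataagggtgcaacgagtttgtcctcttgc
Gbp2, chr3:142620413-142620662, plus strand: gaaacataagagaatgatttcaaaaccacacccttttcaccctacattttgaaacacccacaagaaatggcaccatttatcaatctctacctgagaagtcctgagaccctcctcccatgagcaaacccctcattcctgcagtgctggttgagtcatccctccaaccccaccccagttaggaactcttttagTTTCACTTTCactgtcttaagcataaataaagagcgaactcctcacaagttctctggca
Irgm1, chr11:48871421-48871670, minus strand: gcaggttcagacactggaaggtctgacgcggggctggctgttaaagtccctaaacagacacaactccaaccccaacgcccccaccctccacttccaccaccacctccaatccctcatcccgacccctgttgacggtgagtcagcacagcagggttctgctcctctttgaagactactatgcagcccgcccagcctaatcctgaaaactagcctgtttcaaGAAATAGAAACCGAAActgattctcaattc

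An ISRE core was present upstream of all 7 matched genes, for Gbp3 in 1 of its annotated windows only. Among 21263 windows of protein-coding genes 2.96% held one. Related genes with a window were divided: Gbp2b, Gm12250, Tgtp1 and Tgtp2 held an ISRE core, while Ifi47, Gm5431, 9930111J21Rik1, 9930111J21Rik2 and Irgq held neither core. For Irgm2, Gm12250, Gm5431, Irgq and the Gbp3 window without a core, bases after the annotated start were not found near the start of a GENCODE transcript. The place of these windows is therefore less certain. Of the related genes, Gbp2b, with an ISRE core, stood at 0.06 to 0.10 FPKM, and Ifi47, with neither core, at 21.1 to 723 FPKM. Whether the match goes with the level was not tested. Gbp5, Gbp7, Igtp and Irgm2 held a GAS core as well, and GAS and ISRE cores occurred together in 0.390% of those windows. In Gbp5 the GAS cores lay at -245 to -237 and at -52 to -44 from the start, and the ISRE core lay at -165 to -156 on the opposite strand. Gbp2 had an ISRE core alone, at -59 to -50. Irgm1 had a pair of overlapping ISRE cores, at -30 to -21 and at -24 to -15, and Gbp3 likewise at -45 to -36 and -39 to -30. In Igtp and Irgm2, neighbours on chromosome 11, a GAS core and an ISRE core were separated by the same short spacer. This stretch is shown for both because the genes differ there by 1 base of 21, T4C, counted from the 5′ end with the Igtp base first.
Igtp, chr11:58199511-58199531, plus strand: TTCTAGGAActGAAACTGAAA
Irgm2, chr11:58214902-58214922, plus strand: TTCCAGGAActGAAACTGAAA
A match is a description of letters, and binding was not measured in these samples.

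**Figure D1:**
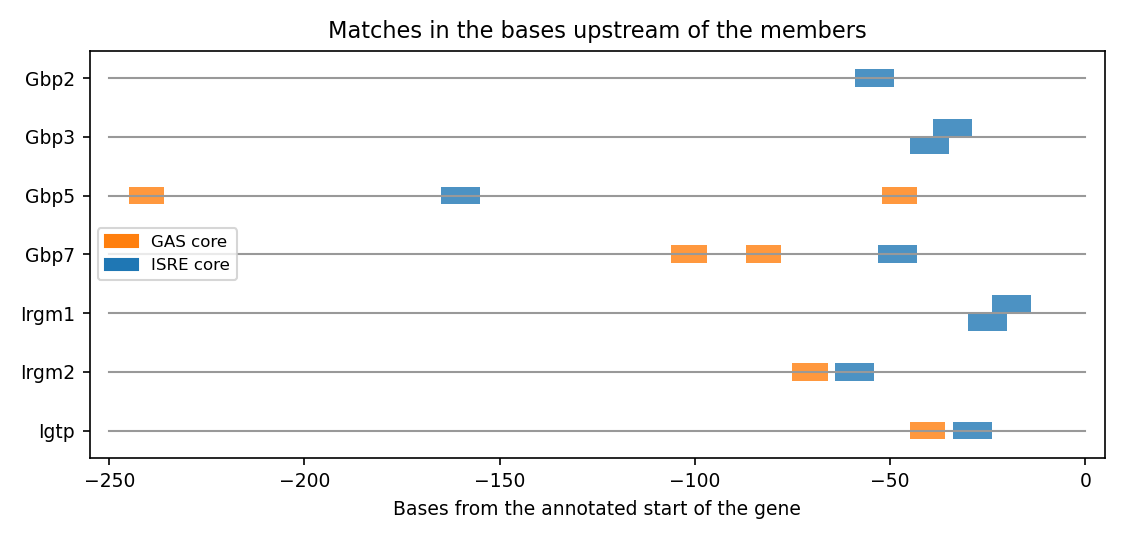
Position of GAS cores (orange) and ISRE cores (blue) in the 250 bases before the annotated start of 7 genes, with the distance from the start in bases on the horizontal axis. Every line carries an ISRE core, and those of Gbp5, Gbp7, Irgm2 and Igtp carry a GAS core too. Overlapping matches of Gbp3 and Irgm1 are drawn above and below the line.

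The comparison of each stimulated library with the 0 h library asks how the 9 genes respond to LPS. At 4, 8, 12 and 24 h all 9 genes exceeded their 0 h level by 2-fold or more on the log2(FPKM + 1) scale, and 0 were lower. Of the 9795 genes, 12.2%, 12%, 12.3% and 11.3% were higher by that much at these times, and 38.1%, 28.9%, 21.5% and 14.5% were lower by that much. The median log2 difference of the 9 genes was 5.21, 5.17, 5.31 and 4.57 at the same times. The 5 GBP genes had a median of 6.18 at 4 h and the 4 IRG genes one of 4.26, with Iigp1 (6.13) above Gbp7 (5.21) and Gbp9 (4.49). At 24 h the medians were 5.11 for GBP genes and 3.34 for IRG genes. Of related genes over the filter, without Ifi47, 2 of 4 GBP and 8 of 9 IRG genes passed 2-fold upward at 4 h. At 24 h 3 of 4 and 8 of 9 did. The shares of all genes were 12.2% and 11.3%. Relative to the median gene 3 of the 4 related GBP genes passed at 4 h, against 21.5% of all genes. A higher level in bulk RNA can come from more RNA per cell or from more cells with that RNA, and these cannot be told apart here.

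Together the 9 genes made up 0.0138%, 0.811%, 0.742%, 0.584% and 0.304% of the summed FPKM of all listed genes at 0, 4, 8, 12 and 24 h. At 0 h the IRG genes held the larger part, with a summed 53.3 FPKM against 18.6 FPKM for the GBP genes. From 4 h on the GBP genes did, with 2420.5 FPKM against 1105 FPKM for the IRG genes at 4 h, and 968 FPKM against 513 FPKM at 24 h. These sums cover the 9 genes only and do not compare the whole families. Listed relatives were left out, among them the IRG gene Ifi47 (209 FPKM at 24 h) and the GBP gene Gbp6 (122 FPKM at 24 h).

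**Figure D2:**
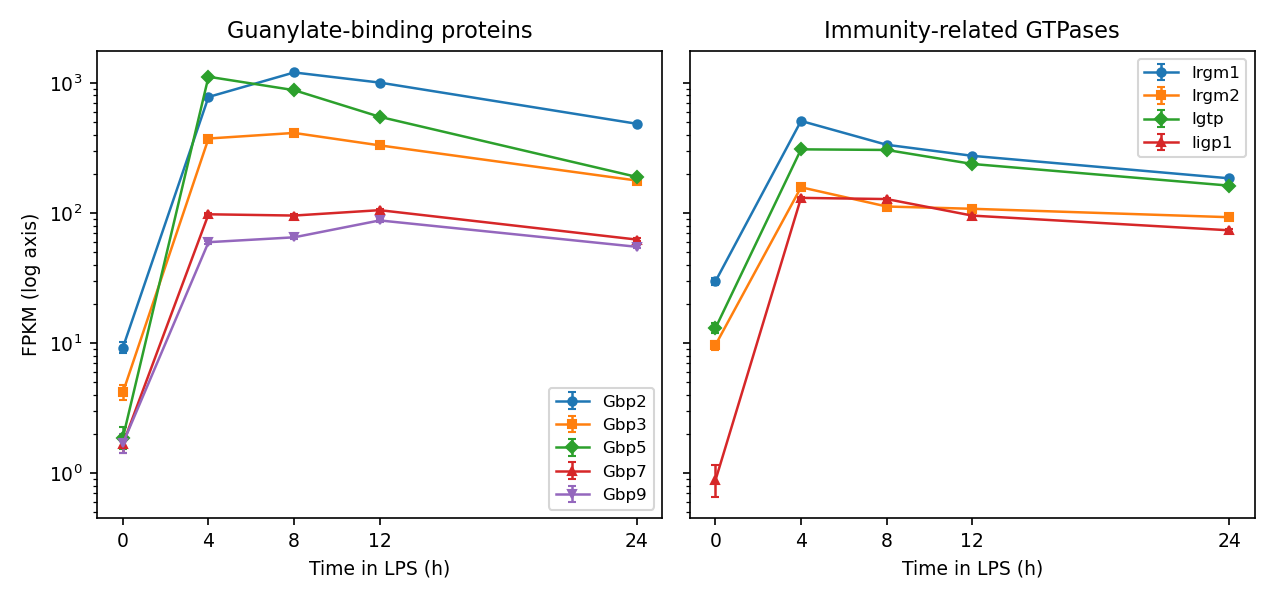
FPKM on a log axis against time in LPS in hours for the 5 GBP genes (left) and the 4 IRG genes (right), 1 library per point. Bars are 95% counting intervals from the estimated depth. All 9 genes lie lowest at 0 h, Gbp5 has 189 FPKM at 24 h against 1113 FPKM at 4 h, and Gbp9 54.9 FPKM against 59.55 FPKM.

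Gbp5, which in mouse macrophages promotes inflammasome activation, had the largest difference among the 9 genes. Gbp5 (chr3:142496934-142522344, RefSeq on GRCm38.p6, as for all genes below) stood at 1.87, 1113, 877, 548 and 189 FPKM at 0, 4, 8, 12 and 24 h. The counting interval at 0 h was 1.54 to 2.26 FPKM, from about 108 reads. The ratio to 0 h was 595 at 4 h and 101 at 24 h. On the log2 scale its difference of 8.60 at 4 h was the 6th largest of 9795 genes, and its 6.05 at 24 h the 26th. It had the highest level of the 9 at 4 h, and at 24 h it stood at 17.0% of that level, the smallest share among the 9.

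Gbp2, a coat protein of vacuoles that hold Toxoplasma in mouse cells, reached the highest level of any of the 9 genes. It (chr3:142620663-142638008) was at 9.22, 778, 1201, 1003 and 484 FPKM at 0, 4, 8, 12 and 24 h. It was highest at 8 h, when it ranked 40th by level among the 13339 genes. The ratio to 0 h was 84.4, 130.2 and 52.5 at 4, 8 and 24 h. Gbp3 (gene 55932, chr3:142560016-142573213) followed a similar course at a lower level, with 4.17, 373, 412, 330.3 and 177 FPKM at 0, 4, 8, 12 and 24 h. Its log2 difference from 0 h was 6.18 at 4 h and 5.11 at 24 h.

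Gbp7, linked in mouse phagocytes to assembly of the NADPH oxidase, and Gbp9 were highest at 12 h in FPKM (Gbp7 at 4 h relative to the median gene), and their levels at 4 and 24 h lay closer together than those of Gbp5. Gbp7 (gene 229900, chr3:142530336-142550151) was at 1.67, 97.6, 95.4, 105 and 62.4 FPKM at 0, 4, 8, 12 and 24 h. Gbp9 (gene 236573, chr5:105076464-105110357) was at 1.69, 59.55, 64.9, 87.5 and 54.9 FPKM at 0, 4, 8, 12 and 24 h. The log2 difference of 24 h from 4 h was -0.12 for Gbp9 and -0.64 for Gbp7, and -2.55 for Gbp5. At 0 h the counting intervals of Gbp5, Gbp9 and Gbp7 overlapped, so these genes were not distinguishable before LPS.

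The regulatory IRG genes had the highest levels of the 9 before LPS. Irgm1, required in mice for control of mycobacteria, (chr11:48865245-48871420) had 29.7, 509, 334, 275 and 184 FPKM at 0, 4, 8, 12 and 24 h. Igtp, also called Irgm3 and required in mice for resistance to Toxoplasma, (gene 16145, chr11:58199556-58207592) had 13, 308, 305, 238 and 162 FPKM at 0, 4, 8, 12 and 24 h. Irgm2, which in mice restrains caspase responses to LPS in the cytosol, (gene 54396, chr11:58214977-58222783) had 9.64, 157, 112, 108 and 92.7 FPKM at 0, 4, 8, 12 and 24 h. At 0 h Gbp2 lay within the counting interval of Irgm2. Their ratios to 0 h were also the lowest of the 9, at 17.1 for Irgm1, 23.7 for Igtp and 16.3 for Irgm2 at 4 h. At 24 h the ratios were 6.20, 12.5 and 9.61.

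The effector gene Iigp1, also known as Irga6, started from a lower level than the regulatory genes. Iigp1 (gene 60440, chr18:60373616-60392634) had 0.88, 130.45, 128, 95.3 and 73.5 FPKM at 0, 4, 8, 12 and 24 h, with a counting interval of 0.66 to 1.16 FPKM at 0 h. It was the lowest of the 9 at 0 h, and its ratio to 0 h was 148 at 4 h and 83.5 at 24 h. Measured by the root mean square distance between log2 differences from 0 h over the 4 stimulated libraries, its nearest neighbour among the other 8 was Gbp3, at 0.22. Irgm1 and Irgm2 were each other's nearest, at 0.30, and so were Gbp7 and Gbp9, at 0.48. Gbp5 stood farthest from all the others, with Gbp2 as its nearest at 1.46.

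The order of levels changed with time. At 0 h it ran from Irgm1 through Igtp, Irgm2, Gbp2, Gbp3, Gbp5, Gbp9 and Gbp7 to Iigp1. At 4 h Gbp5 and Gbp2 came before Irgm1, and Gbp7 and Gbp9 were last. At 8, 12 and 24 h the order began with Gbp2 and Gbp5 and ended with Gbp9. Neighbours with overlapping counting intervals were Irgm2 and Gbp2, Gbp5 and Gbp9, and Gbp9 and Gbp7 at 0 h, Irgm2 and Gbp7 at 12 h, and Gbp5, Irgm1 and Gbp3 at 24 h. The spread between cultures was not measured, and these intervals leave it out.

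**Figure D3:**
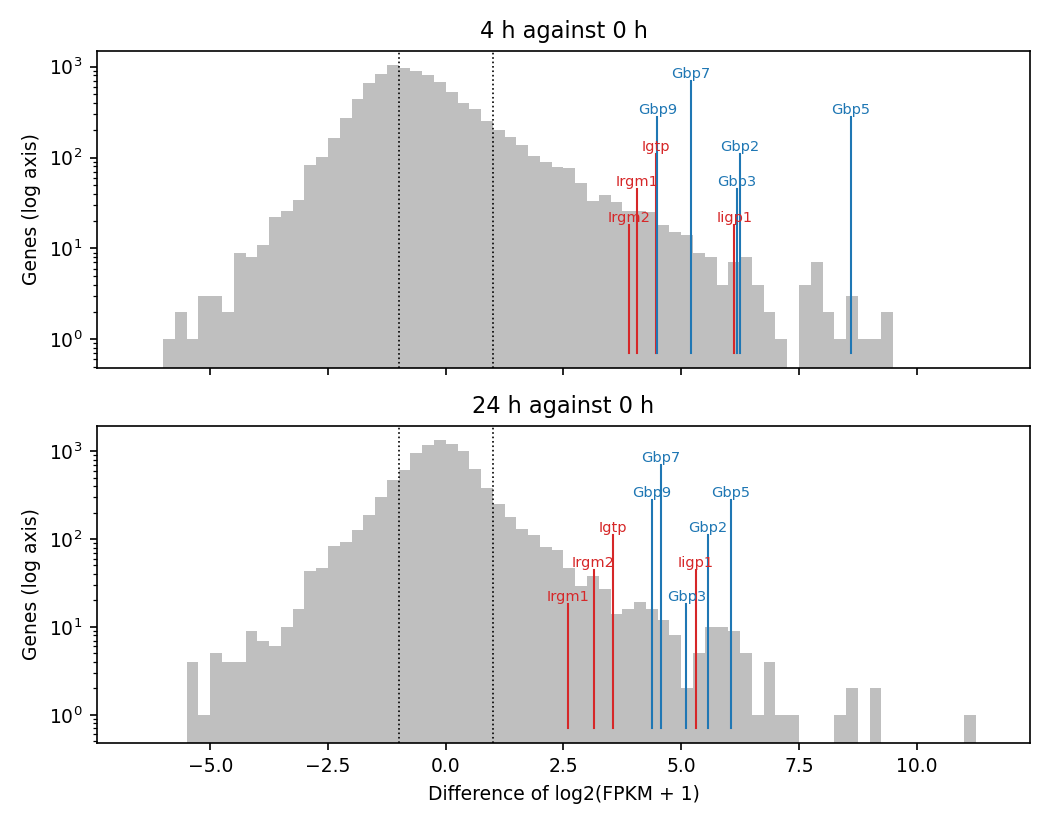
Distribution of the difference of log2(FPKM + 1) from 0 h over 9795 genes (grey, number of genes on a log axis), at 4 h (top) and 24 h (bottom), with the 5 GBP genes in blue and the 4 IRG genes in red. Dotted lines mark 2-fold. All 9 genes lie in the right tail at both times, between 3.90 and 8.60 at 4 h and between 2.59 and 6.05 at 24 h. The height of a coloured line carries no value.

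The comparisons among stimulated libraries ask how long the response lasts. None of the 9 genes was 2-fold apart at 8 h against 4 h, nor at 12 h against 8 h. By that threshold 5.23% and 2.58% of all genes were higher at the later time, and 3.88% and 0.939% lower. At 24 h against 12 h, Gbp5 and Gbp2 were lower by 2-fold or more, with log2 differences of -1.53 and -1.05, against 3.5% of all genes, and none was higher, against 3.42%. Relative to the median gene Gbp3 was lower as well, which made 3 of 9, against 5.67% of all genes. At 24 h against 4 h Gbp5 (-2.55), Irgm1 (-1.46) and Gbp3 (-1.07) were at least 2-fold lower, against 8.19% of all genes, and none of the 9 was 2-fold higher, against 25%. The median of the 9 genes was -0.82 in this comparison, while that of all genes was 0.49. Relative to the median gene, 8 of the 9 (all but Gbp9) passed this threshold downward in the same comparison, against 15.3% of all genes.

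At 24 h the 9 genes still stood well above 0 h. The share of the highest level that was left at 24 h was 17.0% for Gbp5, 36.2% for Irgm1, 40.4% for Gbp2, 43.1% for Gbp3 and 52.6% for Igtp. It was 56.3% for Iigp1, 58.9% for Irgm2, 59.5% for Gbp7 and 62.7% for Gbp9. Of 8 neutrophil markers 7 were listed, and their sum was 58.8 FPKM at 24 h, against 321 FPKM at 4 h and 339 FPKM at 0 h. At 24 h against 4 h 6 of them had lower values, while Ly6g had 3.71 FPKM at 24 h against 0.19 FPKM at 4 h. The sum of the 9 macrophage markers was 3299 FPKM at 24 h, against 2988 FPKM at 4 h. The part of other cell types in the levels of the 9 genes was not tested.

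Related genes of both families were listed in the same table, and their values place the 9 in their genomic neighbourhoods. In all, 11 GBP genes and 15 IRG genes were examined, among them Ifi47, which was added after its values were seen. On chromosome 3 Gbp2b, which lies between Gbp3 and Gbp2, stood at 0.06 to 0.10 FPKM in every library. In FPKM all 6 GBP genes on chromosome 5, Gbp9 included, were highest at 12 h, as was Gbp7 alone of the 5 on chromosome 3, but Gbp6 was highest at 8 h when values were taken relative to the median gene or freed of their trend on transcript length. For Gbp7 it was 4 h under these scalings and as TPM (values rescaled to 1 sum in every library), and for Gbp3 it was 4 h in place of 8 h when centred or with the length trend removed. Of the chromosome 5 genes, Gbp8, Gbp10 and Gbp11 were low even at 12 h, at 2.06, 1.22 and 2.88 FPKM. Counting intervals at 12 h and 24 h overlapped for Gbp8 and for Gbp11.

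Among the other chromosome 5 genes Gbp6 reached the highest level, with 0.73, 91.8, 209, 218 and 122 FPKM at 0, 4, 8, 12 and 24 h. Gbp4 had 0.25, 18.4, 35.2, 59.1 and 33.2 FPKM at the same times. Gbp8 stayed at 0.64 to 2.06 FPKM, Gbp10 was at 1.22 FPKM at 12 h and listed at 0 at 0 h, and Gbp11, annotated by RefSeq as a transcribed pseudogene, was at 2.88 FPKM at 12 h and listed at 0 at 0 h. The levels of Gbp6 and Gbp10 are uncertain, since 90.2% of the 50-base stretches of the Gbp6 transcript and 79.2% of those of Gbp10 also occur in transcripts of Gm43302. For the 9 genes themselves this share was low, from 0.234% for Gbp5 and 0.814% for Irgm1 to 12.3% for Igtp, shared with Irgm2, and 12.8% for Gbp7, shared mostly with Gm43802. For Gbp9 it was 9.56%.

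On chromosome 11, 8 of 10 IRG genes were highest at 4 h, as Irgm1, Irgm2 and Igtp were. For Igtp the counting intervals at 4 h and 8 h overlapped. Ifi47, an effector also called Irgd, had 21.1, 723, 635, 365 and 209 FPKM at 0, 4, 8, 12 and 24 h, which at 4 to 24 h was above every IRG gene among the 9 and at 0 h below Irgm1. Gm12250, the gene of the effector Irgb10, was at 3.86, 178 and 65.6 FPKM at 0, 4 and 24 h, and 36.9% of its highest level was left at 24 h. Tgtp2 was highest at 8 h (2.24, 187, 302, 257 and 181 FPKM at 0, 4, 8, 12 and 24 h) and Tgtp1 at 12 h (23.6 FPKM at 12 h against 0.32 FPKM at 0 h). As 89.8% of the stretches of Tgtp2 occur in Tgtp1, their separate levels are uncertain.

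The remaining IRG genes ranged more widely. 9930111J21Rik1 had 59.1 FPKM at 4 h against 1.44 FPKM at 0 h, and 9930111J21Rik2 66.5 FPKM against 1.77 FPKM. They are uncertain in the same way, since 76.2% of the stretches of 9930111J21Rik1 occur in 9930111J21Rik2. Gm5431 had 71.3 FPKM at 4 h against 10.7 FPKM at 0 h. Its level is also less certain, since 34.8% of its stretches occur in 9930111J21Rik1. Near Iigp1 on chromosome 18, Gm4951 was at 0.64, 11.9, 25.5, 32.55 and 34.2 FPKM at 0, 4, 8, 12 and 24 h. It was highest at 24 h where Iigp1 was highest at 4 h, and under centring or without the length trend it was highest at 12 h. Counting intervals overlapped between 12 h and 24 h for Gm4951, and between 4 h and 8 h for Iigp1. F830016B08Rik had 4.47 FPKM at 12 h against 0.62 FPKM at 0 h. Irgq, an IRG-like gene on chromosome 7, was at 3.52 to 8.17 FPKM, and Irgc1 at 0 to 0.09 FPKM.

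**Figure D4:**
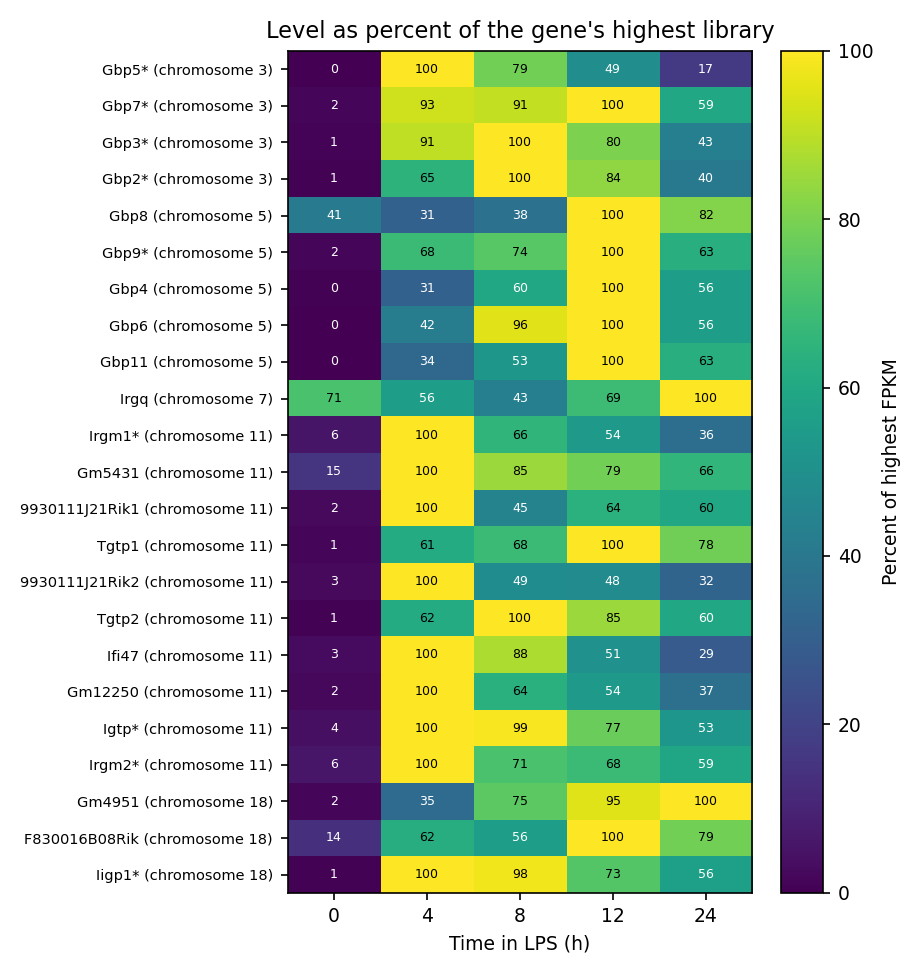
Level of each GBP and IRG gene with a mean of at least 1 FPKM, as a percentage of its own highest library (colour and printed number), against time in LPS in hours. Rows follow chromosome and position, and an asterisk marks the 9 genes of the report. In FPKM the chromosome 5 genes reach 100 at 12 h (Gbp6 at 8 h relative to the median gene), most chromosome 11 genes at 4 h, and Gbp5 has 17.0% of its highest level at 24 h. For the low genes Gbp8 and Gbp11 counting intervals at 12 h and 24 h overlap.

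Other GTPases were set beside these families. Of 8 other interferon-inducible large GTPases 4 were listed, namely Mx1, Mx2, Gvin1 and Gm4070. All 4 passed 2-fold upward from 0 h at both 4 h and 24 h, against 12.2% and 11.3% of all genes. Mx1, an antiviral protein, had 3.67, 634 and 352 FPKM at 0, 4 and 24 h, and Gvin1 had 9.26, 213 and 171 FPKM. Of 9 dynamin-related GTPases over the filter, 1 was at least 2-fold higher at 4 h, a share near the 12.2% of all genes. That gene was Ehd1, an endosomal recycling protein, at 21.75, 390.5 and 166 FPKM at 0, 4 and 24 h. The other 8 were within 2-fold, for example Mfn2, a mitochondrial fusion protein, with 8.35 FPKM at 4 h against 14.04 FPKM at 0 h. Relative to the median gene 4 of these 9 were at least 2-fold higher at 4 h, against 21.5% of all genes. With the trend on transcript length removed 1 of the 9 was, against 19.2%.

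Genes of the signalling that acts at GAS and ISRE sequences were examined as lists. Ifnb1, which encodes interferon beta, was listed at 0 at 0 h and had 7.87, 0.85, 0.22 and 1.29 FPKM at 4, 8, 12 and 24 h. Ifng, among the 11 markers of T, B and NK cells, was not among the 7 that were listed, and it has no value here. Ifnar1, a receptor chain for type I interferon, was at 22.5, 44.2 and 58.1 FPKM at 0, 4 and 24 h. Ifngr1, a receptor chain for interferon gamma, was at 77.0, 27.9 and 36.9 FPKM at 0, 4 and 24 h, and Il10rb had 118 FPKM at 4 h against 191 FPKM at 0 h. At 4 h, 1 of the 6 listed interferon and receptor genes was higher by 2-fold or more (Ifnb1) and 1 was lower (Ifngr1), against 12.2% and 38.1% of all genes. Relative to the median gene 3 were higher and 0 lower, against 21.5% and 13.4%.

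By the same 2-fold threshold 10 of 12 genes of JAK, STAT and IRF factors were higher at 4 h and 1 lower, against 12.2% and 38.1% of all genes. At 24 h 7 were higher and 1 lower, against 11.3% and 14.5%. Relative to the median gene 11 were higher at 4 h and 8 at 24 h, against 21.5% and 12.6% of all genes. With this centring 0 were lower at either time, against 13.4% and 12.3%. Irf1, which binds ISRE sequences, had 31.1, 545, 259, 196 and 136 FPKM at 0, 4, 8, 12 and 24 h. Jak2, a kinase of the interferon gamma receptor, had 8.01, 209, 132.5, 102.6 and 89.2 FPKM. In FPKM Irf1 and Jak2 were highest at 4 h, as the 4 IRG genes and Gbp5 were. For Igtp and Iigp1, however, the counting intervals at 4 h and 8 h overlapped. Batf2 was highest at 8 h (2.99, 92.7, 124, 84.2 and 25.9 FPKM), as Gbp2 and Gbp3 were in FPKM (Gbp3 at 4 h relative to the median gene). Irf7, a factor of the later interferon response, was highest at 12 h with 1304 FPKM, against 472 at 4 h and 33.5 at 0 h, and still had 1251 FPKM at 24 h. Irf3 was the gene lower at 4 h, with 7.88 FPKM against 25.8 FPKM at 0 h. At 24 h it had 16.3 FPKM, within 2-fold, and the gene lower at that time was another.

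**Figure D5:**
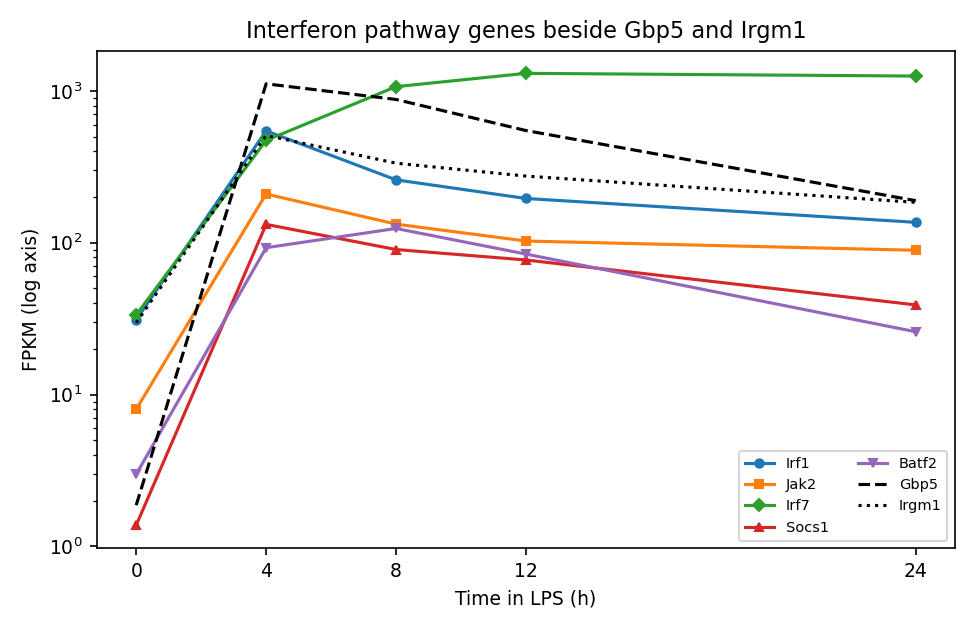
FPKM on a log axis against time in LPS in hours for genes of interferon signalling (coloured) beside Gbp5 (dashed) and Irgm1 (dotted), 1 library per point. Irf1 and Jak2 are highest at 4 h, as Gbp5 and Irgm1 are, while Irf7 has 1304 FPKM at 12 h and 1251 FPKM at 24 h.

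The 2-fold threshold was passed upward by 4 of 7 inhibitors of interferon signalling at 4 h and by 3 of 7 at 24 h, against 12.2% and 11.3% of all genes. When centred on the median gene, 5 of 7 passed it at 4 h, against 21.5%. Socs3 had 2.71, 763 and 263 FPKM at 0, 4 and 24 h, and Socs1, which blocks JAK kinases, had 1.38, 132 and 38.95 FPKM. Usp18, which removes ISG15 and restrains the type I receptor, had 4.88, 309 and 246 FPKM, and the phosphatase gene Ptpn2 9.07, 26.1 and 17.1 FPKM. Ptpn6 was the lowest of the list by its difference, with 131 FPKM at 4 h against 138 FPKM at 0 h.

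The ubiquitin-like conjugation system of autophagy places IRG and GBP proteins on vacuoles. At 4 h 6 of its 12 genes were lower by 2-fold or more and 0 higher, a share not far from the 38.1% of all genes that were lower. With centring on the median gene 3 were lower and 1 higher, against 13.4% and 21.5%. At 24 h 2 were lower and 1 higher, against 14.5% and 11.3%. Gabarapl1 had 108, 22.5 and 46.9 FPKM at 0, 4 and 24 h, Map1lc3b 107, 29.8 and 56.9 FPKM, Atg7 22.5, 5.91 and 10.9 FPKM and Map1lc3a 38.6, 11.7 and 10.6 FPKM. Atg16l1, which scaffolds the conjugation, went the other way within 2-fold, with 16.9 FPKM at 4 h against 9 FPKM at 0 h. Protein prenylation gives Gbp2 and Gbp5 their lipid anchor. Of 8 genes of this process, 4 were lower and 1 higher by the 2-fold threshold at 4 h, near the 38.1% and 12.2% of all genes. Set against the median gene, 0 were lower and 2 higher, against 13.4% and 21.5%. At 24 h 1 was lower and 2 were higher, against 14.5% and 11.3%. Rce1 (5.67 FPKM at 4 h against 19.96 at 0 h), Fnta (9.59 against 29.2) and Icmt (3.58 against 9.77) were lower. Pggt1b, a subunit of the enzyme that adds geranylgeranyl groups, was higher, with 9.30 FPKM at 4 h against 2.84 FPKM at 0 h.

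Caspase and inflammasome genes acting after GBPs were higher by 2-fold or more in 7 of 8 cases at 4 h and in 5 of 8 at 24 h, where 1 was lower by as much. The shares of all genes were 12.2% higher at 4 h, and 11.3% higher and 14.5% lower at 24 h. Casp4, whose product binds LPS in the cytosol, had 12.2, 145, 207, 140 and 107 FPKM at 0, 4, 8, 12 and 24 h. Nlrp3, an inflammasome sensor, had 6.27, 174 and 22.7 FPKM at 0, 4 and 24 h. Il1b had 2.50, 2323 and 389 FPKM and Il18 8.40, 44.8 and 12.8 FPKM. Pycard, the adaptor of inflammasomes, was at 20.9, 17.96 and 8.29 FPKM at 0, 4 and 24 h.

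The genes whose course was most like the middle of the 9 were found over the 4 stimulated libraries by the same distance, taken to the median profile of the 9. At all 4 times this median was the value of Gbp7, so the genes named are the neighbours of Gbp7, and Gbp5 and Irgm1 lie away from it. The nearest was Pyhin1, of the interferon-inducible family of nucleic acid-binding proteins, at 0.20, with 11.2, 432, 463, 375 and 272 FPKM at 0, 4, 8, 12 and 24 h. The next were Adora2a, an adenosine receptor gene, at 0.36 and Pydc4 at 0.41. Cxcl11, a chemokine gene, stood at 0.41, Socs1, Il15ra and Phf11d at 0.42 each, and the transporter gene Slco3a1 at 0.44. The distances describe 5 libraries that all 9795 genes share.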

How the data were processed

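RNA of mouse bone marrow-derived macrophages was sequenced in 5 libraries, 1 per time in LPS, grouped by the time label. The authors deposited a table of FPKM values with 2 decimals, per the file headers. The submitters' processing notes list Bowtie2, RSEM and the build GRCm38 with no version or role, while annotation and filters are not stated in any source read here. As FPKM are relative to the whole library, 1 gene's value goes down when others take more reads, and RSEM-type estimates divide reads between similar copies.

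All differences are on log2(FPKM + 1), a scale that understates folds of low genes, among 9795 genes with a mean of at least 1 FPKM (3544 were below). The threshold for higher or lower was 2-fold on that scale. No test or p-value was computed. The ratios quoted are ratios of FPKM. Symbols turned into dates (20) were restored by gene identifier. Depth was estimated from whole-read steps of low values of genes with 1 transcript of 400 to 2500 nt, searched from 5 to 60 M reads with lengths reduced by 40 nt: in each library 71 to 81 values were read, and 45.1% to 59.7% of them lay within 0.04 reads (or the rounding, if larger) of a whole number, against 19.4% to 21.2% for a fixed step. Intervals are Poisson (95%), using the longest protein-coding GENCODE M21 transcript. Shared stretches were counted as 50-mers of that transcript found in transcripts of other genes.

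The 9 members and the lists were chosen with earlier results of these data known. Named were the 9 genes, other listed GBP and IRG genes, and per list up to 4 genes over the filter with the largest difference at 4 h and the 1 largest in the opposite direction. Ifi47 lies outside this rule and was added after its values were seen, and 1 item is not reported here. Protein sequences were not used here. The 8 genes nearest to the median profile were named too. The steps were tested on simulated data. Alternatives were pseudocounts of 0.1 and 5, other scalings, removal of the trend on transcript length, a 4-fold threshold and no filter. Python 3.11.15, numpy 2.4.6, pandas 2.3.3, scipy 1.17.1 and matplotlib 3.10.9 were used.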

Additional observations from a re-analysis of the deposited data

How the results depend on the processing

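The count of 9 genes above 0 h at 4, 8, 12 and 24 h held under each alternative tried, a 4-fold threshold included. Between 12 h and 24 h the number at least 2-fold lower was 2, and became 1 with libraries scaled to the sum without the 20 highest genes (Gbp5 alone), 3 with libraries centred on the median gene, 4 with the length trend removed and 0 at 4-fold. For 24 h against 4 h it was 3, and became 4 as TPM, 8 with libraries centred on the median gene, 8 with the length trend removed and 1 at 4-fold. Centring sets the median gene, at 0.49 for 24 h against 4 h, to 0, a 4-fold threshold is stricter by construction, and for the other settings the cause was not tested. Of the values of single genes under these alternatives, 238 stayed within counting error and 266 moved beyond it, and none changed sign where it was past 2-fold. The 238 include the setting with no filter, which cannot change the value of a single gene. The depth of the libraries is an estimate, and the spread between cultures was not measured. No paired analysis was possible because each time point had 1 library.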
